A study of Mus musculus with 36 samples.

Results

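Intermediate filaments are the rope-like proteins that give a cell its resistance to stretch, and lamins are the members of the same family that line the inside of the nuclear envelope. Their transcripts were followed here in mouse hearts under pressure overload. The genes are 8 of the 25626 listed in the deposited table and were taken by their gene names: the keratins Krt8 and Krt18, vimentin (Vim), desmin (Des), nestin (Nes), synemin (Synm), lamin A/C (Lmna) and lamin B1 (Lmnb1). The set was chosen on measured values in 1 respect: Krt18 had been seen to vary strongly among hearts with aortic constriction. Its values, differences and correlations in those hearts are therefore given as a description, without a test, and counts of genes that passed a test are over the 7 other members.

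RNA from whole hearts was sequenced in 36 mice, 6 in each of 6 groups. Control mice (Con) and mice carrying the transgene label cSirt4-Tg, named after the mitochondrial sirtuin Sirt4, had sham surgery with vehicle (Con-Sham, cSirt4-Tg-Sham), transverse aortic constriction with vehicle (Con-TAC, cSirt4-Tg-TAC) or the same constriction with MitoQ (Con-TAC-MQ, cSirt4-Tg-TAC-MQ). Transverse aortic constriction (TAC) puts a tight ligature on the aorta, so that the heart pumps against pressure, and MitoQ is an antioxidant that accumulates in mitochondria. The study set out to find routes by which mitochondrial reactive oxygen species worsen heart muscle disease in the transgenic mice. The sources used here give no age, sex, strain or time after surgery, and they do not name the promoter of the transgene. No MitoQ was given to a sham group.

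In heart muscle cells desmin links the contractile fibrils to each other, to the intercalated discs, to mitochondria and to the nucleus, and synemin is an accessory protein that co-assembles with it. Vimentin is the filament of fibroblasts, endothelium and other mesenchymal cells, and nestin marks progenitor cells, activated mesenchymal cells and some stressed muscle cells. Keratins 8 and 18 form obligate pairs in simple epithelia. The adult heart wall contains little of that tissue beyond its mesothelial covering. A-type lamins stiffen the nuclei of mature cells, whereas lamin B1 is found at the envelope of nearly all nuclei and is abundant in dividing cells.

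The libraries held 14830000 to 60010000 assigned reads, with a median of 28370000. Values below are normalized read counts, and log2 differences are on the log2(value + 1) scale with their SE. The p-values measure only the spread between these hearts, which the labels number but do not tie to litters or days. Sirt4, the gene the genotype label names, had a median of 375.1 in Con-Sham and 386.3 in cSirt4-Tg-Sham, of 358.4 and 342.9 after TAC and of 350.5 and 355.0 with MitoQ, so its level did not check the genotype labels. Some libraries stood apart. The library labelled cSirt4-Tg-TAC 6 correlated better with the Con-Sham mean (r = 0.9745 across genes) than with its own group (0.9391), and Con-TAC 6 better with cSirt4-Tg-TAC (0.9654) than with its own (0.9459). Other libraries also correlated better with another group than with their own. Con-TAC-MQ 3 had r = 0.9725 with cSirt4-Tg-TAC and 0.9597 with its own group, and Con-TAC 1 had 0.9823 with Con-Sham and 0.9784 with its own. Con-TAC-MQ 3 had a summed value of 3924 for 6 genes of dividing cells, against a group median of 297.4. The heart cSirt4-Tg-TAC 4 had a sum of 8515 for 4 adipocyte genes and of 2747 for 10 genes of mesothelium and epicardium, where the group medians were 27.0 and 190.9, and cSirt4-Tg-Sham 2 held epithelial transcripts that are given with Krt8. The library names also carry a number of unknown meaning, 7 to 12 for the vehicle TAC libraries apart from Con-TAC 6 (20) and cSirt4-Tg-TAC 6 (29), 20 or 21 for every library with MitoQ, and 9 to 14 or 29 to 31 for the sham libraries. MitoQ and this number therefore cannot be told apart.

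Krt8 and Krt18 are neighbours. In the deposited table (build mm39) Krt8 lies on chromosome 15 at 101905133 to 101912917 on the minus strand and Krt18 at 101936615 to 101940462 on the plus strand, head to head with 23697 bases between them and 0 listed genes in the gap. Des lies on chromosome 1 (75336973 to 75345223), Vim on chromosome 2 (13578738 to 13587637), Nes and Lmna on chromosome 3 (87878385 to 87887758 and 88387454 to 88417263) and Synm on chromosome 7 (67379908 to 67409490). The 250 bases before the start of 3 of these genes are shown because Krt8 and Krt18 encode the partners of one filament and Krt18 varied with Des among TAC hearts. The sequences are RefSeq's for build GRCm38.p6, 5′ to 3′ on the strand of the gene, with the motifs TATAA and CANNTG in capitals. The Krt8 stretch is chr15:102004343-102004592 on the minus strand, that of Krt18 is chr15:102027966-102028215 on the plus strand and that of Des is chr1:75360042-75360291 on the plus strand.
Krt8: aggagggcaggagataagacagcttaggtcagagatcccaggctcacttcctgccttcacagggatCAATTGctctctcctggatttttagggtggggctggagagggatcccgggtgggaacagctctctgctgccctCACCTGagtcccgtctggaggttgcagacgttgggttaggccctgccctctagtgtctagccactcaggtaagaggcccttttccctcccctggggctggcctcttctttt
Krt18: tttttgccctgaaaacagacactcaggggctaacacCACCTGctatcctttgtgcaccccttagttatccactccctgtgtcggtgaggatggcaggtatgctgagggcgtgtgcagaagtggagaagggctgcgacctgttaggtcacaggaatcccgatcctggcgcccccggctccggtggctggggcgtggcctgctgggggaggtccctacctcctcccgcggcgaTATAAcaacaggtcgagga
Des: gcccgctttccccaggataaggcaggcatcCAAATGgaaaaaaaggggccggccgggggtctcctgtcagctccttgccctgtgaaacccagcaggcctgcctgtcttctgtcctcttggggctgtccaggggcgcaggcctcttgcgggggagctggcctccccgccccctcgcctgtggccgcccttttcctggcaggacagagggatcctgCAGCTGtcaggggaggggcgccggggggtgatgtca
Krt18 had a TATAA beginning 19 bases before its start, and Krt8 had an overlapping pair of them at the start itself, which begin in the last bases shown and run past them. CANNTG, the E-box pattern, began 214 bases before the start of Krt18, 184 and 111 bases before that of Krt8 and 220 and 36 bases before that of Des. Krt8 also had a CANNTG after its start, past the bases shown. Des also had GGGCGG, a GC box, on the opposite strand 87 and 69 bases before its start, and neither keratin gene had one. TGANTCA, the AP-1 pattern, was found in none of the 3. All patterns were searched on both strands from 250 bases before to 50 after the start, and these letters stood in 24.9% (TATAA), 72.3% (CANNTG), 35.7% (GGGCGG) and 7.81% (TGANTCA) of 32851 promoters of that length.

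**Figure D1:**
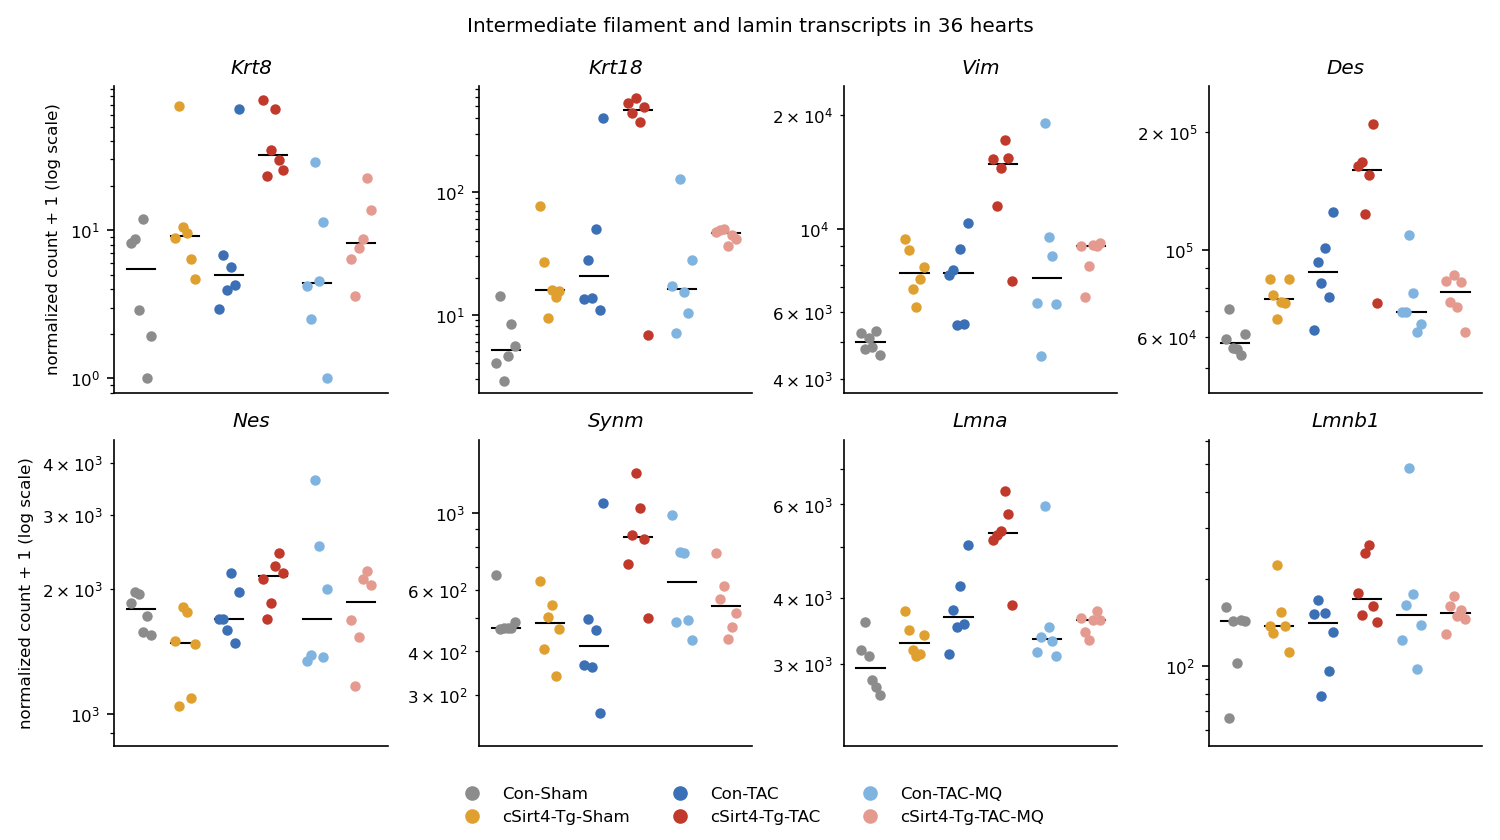
Normalized read count plus 1 of the 8 genes in each of the 36 hearts, on a log axis, 1 panel per gene; each point is a heart and each bar the median of 6. In cSirt4-Tg-TAC 5 hearts had Krt18 between 370.1 and 586.9 and replicate 6 had 5.78, while Con-TAC replicate 6 had 400.1.

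By group median all 8 transcripts were highest in cSirt4-Tg-TAC hearts. Pressure overload in control hearts (Con-TAC against Con-Sham) was read first. Des alone of the 7 tested members rose, against 2.65% of all 16275 tested genes that were higher. The median log2 difference of the 7 was 0.36 and that of all genes 0.01. In cSirt4-Tg hearts TAC went with a rise in 5 of the 7, namely Vim, Des, Nes, Synm and Lmna, where 7.91% of all genes were higher. Their median was 0.76 against -0.01 for all genes. Between the genotypes 0 of the 7 passed in sham hearts with limma, edgeR or DESeq2 (0.873% of all genes in either direction with limma, 2131 genes at an unadjusted p under 0.05). After TAC 5 of the 7, Krt8, Vim, Des, Synm and Lmna, were higher in cSirt4-Tg than in control hearts (3.19% of all genes higher, medians 0.69 and 0.00). These comparisons share groups and are not independent of each other.

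With MitoQ 0 of the 7 members passed in control TAC hearts with limma, edgeR or DESeq2, where 3.23% of all genes passed in either direction with limma and 3053 had an unadjusted p under 0.05. In cSirt4-Tg TAC hearts 4 of the 7, Krt8, Vim, Des and Lmna, fell with MitoQ, where 7.44% of all genes were lower. The median of the 7 was -0.61 and that of all genes 0.00. Under MitoQ the genotypes differed in 0 of the 7 with each of the 3 tools (0.0737% of all genes in either direction with limma, 669 at an unadjusted p under 0.05). A test of whether TAC acted differently in the 2 genotypes passed for 0 of the 7 members and 0.0% of all genes, with 949 genes at an unadjusted p under 0.05. The same test for MitoQ after TAC also passed for 0 of the 7 and 0.0% of all genes, with 1377 at an unadjusted p under 0.05. In edgeR these interactions had 0 calls over all genes, and in DESeq2 2 and 16. The 5 calls in cSirt4-Tg and the 1 in control hearts are not shown to differ. Of the members Synm came nearest, with a log2 difference between the TAC effects of 0.97 (SE 0.34, limma adjusted p = 0.717) and between the MitoQ effects of -1.08 (SE 0.34, adjusted p = 0.533).

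**Figure D2:**
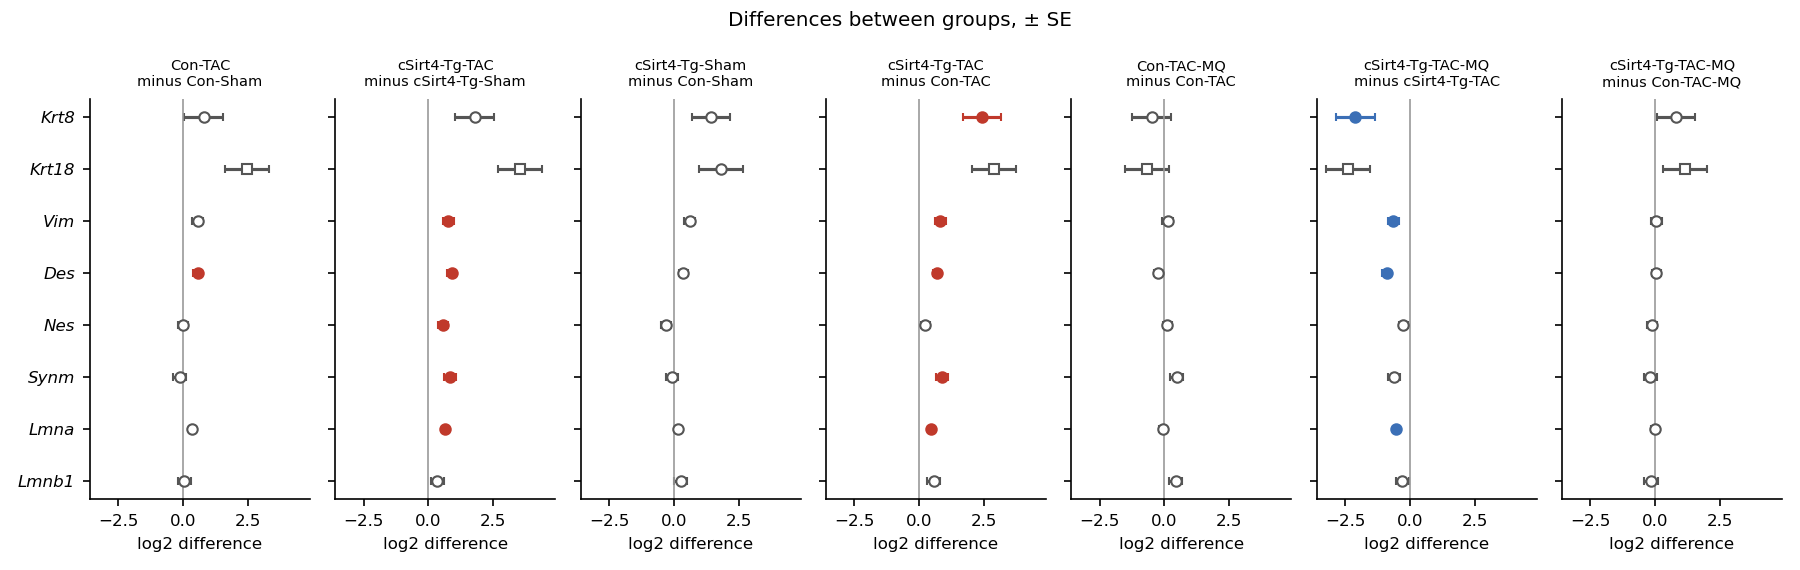
Log2 differences of the 8 genes in the 7 comparisons of 2 groups, with SE as bars; filled red points were higher and filled blue points lower at a limma adjusted p under 0.05, open circles did not pass and open squares mark Krt18 where it was not tested. In cSirt4-Tg-TAC against Con-TAC the differences of Krt8, Vim, Des, Synm and Lmna lay between 0.45 and 2.42. The open circle of Krt18 in cSirt4-Tg-Sham against Con-Sham is not read as a test.

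Among the libraries named 7 to 14 (3 of each sham group and 5 of each vehicle TAC group, without the replicates 6 that stood apart), the log2 differences between the genotypes after TAC were larger than in all hearts. Krt8 was 3.19 higher (SE 0.45, limma adjusted p = 0.00104), Synm 1.29 (SE 0.18, adjusted p = 0.00111), Vim 1.08 (SE 0.15, adjusted p = 0.000983), Des 0.98 (SE 0.16, adjusted p = 0.00189) and Lmna 0.61 (SE 0.10, adjusted p = 0.0015). Krt18, not tested, was 4.63 higher (SE 0.36). TAC in cSirt4-Tg hearts gave Des 1.10 (adjusted p = 0.00629), Synm 0.88 (adjusted p = 0.022), Vim 0.82 (adjusted p = 0.00963) and Lmna 0.68 (adjusted p = 0.00506), and Nes did not pass (0.54, adjusted p = 0.0765). MitoQ cannot be read this way, since no library with MitoQ has these numbers.

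Leaving out single libraries changed several of these counts, and the calls over all genes moved as well. These ran from 134 to 1543 genes for Con-TAC against Con-Sham and from 134 to 3642 for cSirt4-Tg-TAC against Con-TAC. For MitoQ in cSirt4-Tg TAC hearts they ran from 2055 to 4444. A changed count is thus not shown to be particular to the members. For Con-TAC against Con-Sham the count of members was 0 without any one of Con-Sham 1, 3, 4, 5 and 6 or Con-TAC 2, 3, 4 and 6, and 2 without Con-TAC 1. For cSirt4-Tg-TAC against Con-TAC it was 0 without any one of Con-TAC 1, 3 and 5 or cSirt4-Tg-TAC 4 and 5, 1 (Synm) without cSirt4-Tg-TAC 1, 3 (Vim, Des and Lmna) without cSirt4-Tg-TAC 3, and 0 when only these 12 libraries were fitted. For MitoQ in cSirt4-Tg TAC hearts it was 2 (Des and Lmna) without any one of cSirt4-Tg-TAC 1, 3, 4 and 5 or cSirt4-Tg-TAC-MQ 1, 2, 3, 4 and 6, while Krt8 was also lost without cSirt4-Tg-TAC 2 and Vim without cSirt4-Tg-TAC-MQ 5. The rise of Vim, Des, Synm and Lmna with TAC in cSirt4-Tg hearts passed in all 12 fits that left out 1 library of that comparison. The 5 libraries that stood apart were also left out together, a choice made after seeing the data. The counts of members were then 3, 5, 1, 5, 1, 5 and 0 in the 7 comparisons in the order given, and 3 in each interaction: Des, Lmna and Synm. The shares of all genes in that fit are not given here, so these counts are not read as a result about the members.

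Krt18 was the member picked for its spread among TAC hearts. It had 1.88 to 13.2 normalized counts in the 6 Con-Sham hearts, with a median of 4.10, and 8.32 to 76.5 in cSirt4-Tg-Sham, with a median of 14.8. All 6 cSirt4-Tg-Sham hearts lay above the Con-Sham mean and 4 above every Con-Sham heart (log2 1.81, SE 0.85). That SE comes from the fit of all 36 libraries, so it holds the spread of the TAC hearts on which Krt18 was chosen. Without the 5 libraries that stood apart the difference was nearly the same (log2 1.73) with a smaller SE (0.44). That fit left out Con-TAC 6 and cSirt4-Tg-TAC 6, which carried much of the spread on which Krt18 was chosen. No p-value is therefore given for Krt18 in either fit, and its sham difference is not read as tested. In Con-TAC 5 hearts had 9.87 to 48.8 and the remaining heart, Con-TAC 6, had 400.1. In cSirt4-Tg-TAC the pattern was the reverse: 5 hearts had 370.1, 439.5, 496.7, 532.8 and 586.9, and cSirt4-Tg-TAC 6 had 5.78, inside the range of Con-Sham. The groups of vehicle TAC hearts thus overlapped through 1 heart on each side. With MitoQ the control hearts had 6.09 to 27.1 apart from 126.9 in Con-TAC-MQ 3. The 6 cSirt4-Tg-TAC-MQ hearts were close together at 35.5 to 49.4, above 5 of the 6 Con-TAC-MQ hearts and below 5 of the 6 cSirt4-Tg-TAC hearts. In whole hearts, fewer cells of a type and less RNA per cell cannot be told apart.

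By median the groups stood in the order Con-Sham (4.10), cSirt4-Tg-Sham (14.8), Con-TAC-MQ (15.2), Con-TAC (19.7), cSirt4-Tg-TAC-MQ (45.0) and cSirt4-Tg-TAC (468.1), and the ranges of every neighbouring pair in that order overlapped. On the log2 scale Krt18 was 2.48 higher (SE 0.85) in Con-TAC than in Con-Sham, and 1.76 higher without Con-TAC 6. It was 3.55 higher (SE 0.85) in cSirt4-Tg-TAC than in cSirt4-Tg-Sham, and 4.57 higher without cSirt4-Tg-TAC 6. The genotypes differed by 2.88 (SE 0.85) after TAC, by 3.60 without Con-TAC 6 and by 3.90 without cSirt4-Tg-TAC 6. With MitoQ Krt18 was lower by 2.40 in cSirt4-Tg hearts (log2 difference -2.40, SE 0.85). In control hearts the MitoQ difference was -0.67 (SE 0.85), and it became 0.06 without Con-TAC 6 and -1.20 without Con-TAC-MQ 3. These are values of a gene picked for its spread among TAC hearts.

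Krt8, the partner of Krt18 in epithelial filaments, was scarce. It had at least 10 normalized counts in 13 of the 36 hearts, with 0 to 82 reads, against 26 hearts and 2 to 856 reads for Krt18. In Con-Sham it had 0 to 10.9 (median 4.51), and in cSirt4-Tg-Sham 3.67 to 9.51 in 5 hearts and 68.0 in replicate 2. Con-TAC had 1.92 to 5.81 in 5 hearts and 64.8 in replicate 6. All 6 cSirt4-Tg-TAC hearts, replicate 6 included, had 22.1 to 74.1, which overlapped Con-TAC only through Con-TAC 6. The difference between the genotypes after TAC was 5.37-fold (log2 2.42, SE 0.74, limma adjusted p = 0.0435). It was lost without any one of Con-TAC 1 to 5 or cSirt4-Tg-TAC 1, 3, 4 and 5 (adjusted p up to 0.124), and in both count-based tests, with Krt8 adjusted p = 0.216 in edgeR and 0.188 in DESeq2. In cSirt4-Tg-TAC-MQ Krt8 had 2.60 to 21.4, below every cSirt4-Tg-TAC heart (4.30-fold lower, log2 -2.11, SE 0.74, adjusted p = 0.0458). With edgeR the adjusted p for Krt8 in that comparison was 0.0735. A processed copy listed as Krt8-ps had 0 to 8.80, so few reads were counted there.

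The hearts with the most Krt8 also held transcripts of epithelium. Epcam and Cdh1, which encode adhesion proteins of epithelial cells, had 51.0 and 60.1 in cSirt4-Tg-Sham 2 and 22.9 and 86.2 in Con-TAC 6, where the other 10 hearts of those groups had at most 5.35 and 7.33. Krt7, a keratin of simple epithelium, had 63.5 and 67.2 in these 2 hearts. The heart cSirt4-Tg-TAC 1, with the highest Krt8 (74.1), had the highest sum of the 7 epithelial markers, 373.4. Epcam and Cdh1 were only 9.27 and 20.4 in that heart, so most of its sum came from others of the 7. In cSirt4-Tg-TAC 4, with Krt8 at 64.7, the mesothelial genes Msln and Upk3b had 698.8 and 758.1, and 0 to 3.71 in the rest of that group. The other 4 cSirt4-Tg-TAC hearts had Krt8 between 22.1 and 33.9 with epithelial sums of 0 to 12.3 and mesothelial sums of 138.7 to 226.4, which are within the range of the Con-Sham hearts (1.02 to 66.9 and 128.7 to 266.8) or below it. Krt18 was also high in Con-TAC 6 (400.1) and in cSirt4-Tg-TAC 1 (532.8), but it was 26.1 in cSirt4-Tg-Sham 2, below the 76.5 of cSirt4-Tg-Sham 1, and 5.78 in cSirt4-Tg-TAC 6 beside a Krt8 of 24.3. Within Con-TAC the r of Krt18 and Krt8 was 0.955, and within cSirt4-Tg-TAC 0.384. The part of epithelial tissue in the Krt8 differences was not tested. Without the 5 hearts that stood apart, the Krt8 difference between the genotypes after TAC was 3.02 (SE 0.66). These hearts were picked after seeing the data and include Con-TAC 6, the only Con-TAC heart with high Krt8. A larger difference was thus to be had by the choice, and no p-value is given. That fit kept cSirt4-Tg-TAC 1, with its high epithelial sum.

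**Figure D3:**
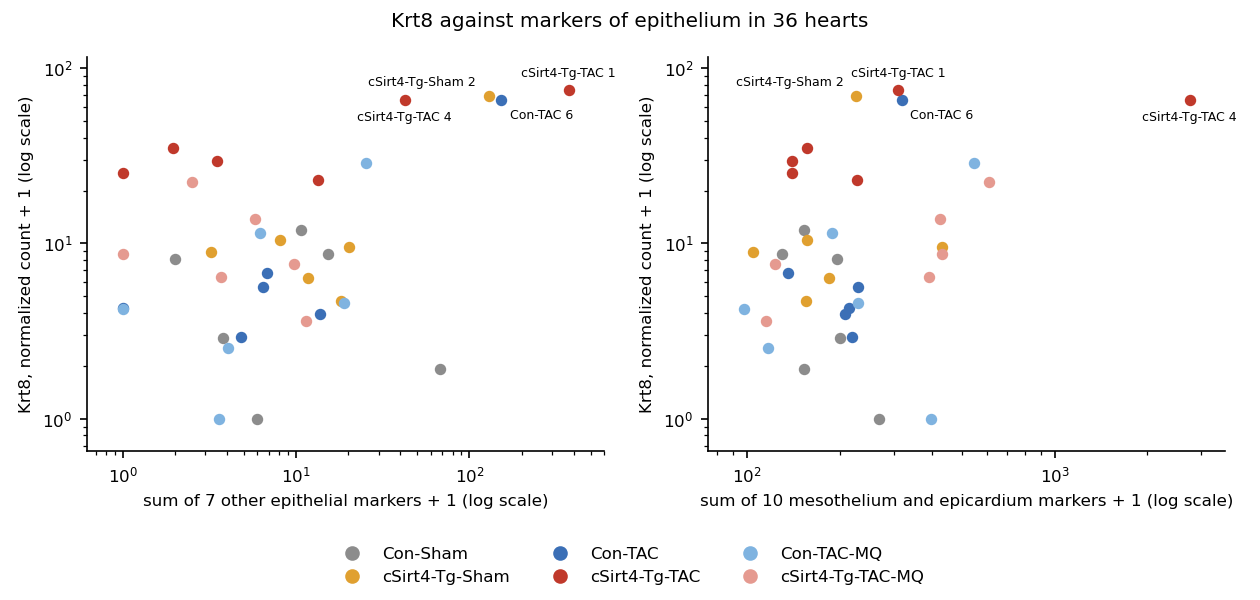
Krt8 in each of the 36 hearts against the summed normalized counts of 7 markers of other epithelium (left) and of 10 markers of mesothelium and epicardium (right), all plus 1 and on log axes; each point is a heart. The 4 labelled hearts have Krt8 of 64.7 to 74.1, and the other cSirt4-Tg-TAC hearts lie above most hearts at the same marker sums.

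Desmin, the muscle filament, rose with TAC in both genotypes and was higher in cSirt4-Tg than in control hearts after TAC. It had 54090 to 70770 normalized counts in Con-Sham (median 57840) and 62360 to 125000 in Con-TAC (median 87650). All Con-TAC hearts except replicate 1 lay above every Con-Sham heart (1.48-fold, log2 0.57, SE 0.17, limma adjusted p = 0.0461). In cSirt4-Tg-Sham it had 66850 to 84590 (median 75170) and did not pass against Con-Sham (log2 0.36, SE 0.17, adjusted p = 0.361), although 5 of 6 hearts lay above all of Con-Sham. In cSirt4-Tg-TAC 5 hearts had 123700 to 209500 and replicate 6 had 73420. Des was thus 1.86-fold higher than in cSirt4-Tg-Sham (log2 0.90, SE 0.17, adjusted p = 0.0013) and 1.62-fold higher than in Con-TAC (log2 0.69, SE 0.17, adjusted p = 0.0194). The cSirt4-Tg-TAC-MQ hearts had 61870 to 86180, and 5 of the 6 cSirt4-Tg-TAC hearts lay above all of them (1.86-fold lower with MitoQ, log2 -0.90, SE 0.17, adjusted p = 0.000749). In control hearts with MitoQ Des had 61710 to 77750 and 109200 in replicate 3. By median Des stood highest in cSirt4-Tg-TAC (159700), then in Con-TAC (87650), and the other 4 groups lay between 57840 and 78270 with overlapping ranges.

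The rise of Des in control hearts was lost in several fits. With the class of the name number in the model Des had a log2 difference of 0.32 (adjusted p = 0.340), and in the libraries named 7 to 14 alone 0.40 (SE 0.14, adjusted p = 0.188). With the replicate number as a block the adjusted p for Des was 0.0655. A small gene on the opposite strand of Des, Gm15179, had at most 37.4. Smooth muscle and pericytes also make desmin and synemin. Of their 6 markers, Acta2 (log2 1.46, SE 0.30, limma adjusted p = 0.00839) and Cspg4 (log2 0.66, SE 0.19, adjusted p = 0.0373) were higher in cSirt4-Tg-TAC than in Con-TAC, and Tagln and Cspg4 rose with TAC in cSirt4-Tg hearts. With MitoQ Tagln fell in cSirt4-Tg hearts, and 0 of the 6 passed with TAC in control hearts. Of all genes 3.19% were higher in cSirt4-Tg-TAC than in Con-TAC. In cSirt4-Tg hearts 7.91% rose with TAC and 7.44% fell with MitoQ. With TAC in control hearts 2.65% were higher and 2.65% lower. The summed 6 markers were 21270 to 31410 in Con-TAC, 21070 to 27530 in cSirt4-Tg-Sham, 23420 to 30860 in cSirt4-Tg-TAC and 25050 to 31500 in cSirt4-Tg-TAC-MQ, which overlap, and none was at 0. Their part in the Des and Synm differences was not tested.

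Synemin, the partner of desmin, did not follow it in control hearts. Synm had 463.2 to 485.5 in 5 Con-Sham hearts and 664.7 in replicate 1, and 265.3 to 496.0 in 5 Con-TAC hearts with 1069 in replicate 6. The means were 502.3 and 502.7, and 4 Con-TAC hearts lay below all of Con-Sham (log2 -0.14, SE 0.24, adjusted p = 0.774). In cSirt4-Tg hearts Synm rose with TAC from a range of 338.2 to 636.7 to one of 498.3 to 1304 (1.78-fold, log2 0.83, SE 0.24, limma adjusted p = 0.0182). After TAC it was 1.86-fold higher in cSirt4-Tg than in control hearts (log2 0.89, SE 0.24, adjusted p = 0.0295), where all cSirt4-Tg-TAC hearts except replicate 3 lay below Con-TAC 6. Its 434.9 to 767.1 in cSirt4-Tg-TAC-MQ did not pass against cSirt4-Tg-TAC (log2 -0.61, SE 0.24, adjusted p = 0.0764). Synm overlaps Ttc23 on the opposite strand (158.5 to 325.7), and the sources used here do not say whether reads were counted by strand.

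Vimentin, the mesenchymal filament, was higher in every cSirt4-Tg sham heart than in any control sham heart, and the difference did not pass the test. The 6 Con-Sham hearts had 4607 to 5344 and the 6 cSirt4-Tg-Sham hearts 6181 to 9390, so the groups did not overlap (1.54-fold, log2 0.62, SE 0.22, limma adjusted p = 0.176). In the 12 fits that left out 1 library of this comparison Vim did not pass either (limma adjusted p from 0.163 to 0.342). Vim passed when only its 12 libraries were fitted (adjusted p = 0.000661) and within the libraries named 7 to 14 (log2 0.71, SE 0.12, adjusted p = 0.0433). It also passed without the 5 libraries that stood apart, a choice made after seeing the data (log2 0.58, SE 0.14, adjusted p = 0.0119). Con-TAC, with 5537 to 10340, also lay wholly above Con-Sham and did not pass (log2 0.57, SE 0.22, adjusted p = 0.109). In cSirt4-Tg-TAC 5 hearts had 11480 to 17180 and replicate 6 had 7239. Vim was 1.69-fold higher there than in cSirt4-Tg-Sham (log2 0.76, SE 0.22, adjusted p = 0.0161) and 1.76-fold higher than in Con-TAC (log2 0.81, SE 0.22, adjusted p = 0.0278). It fell 1.55-fold with MitoQ, to 6593 to 9149 (log2 -0.63, SE 0.22, adjusted p = 0.0397), and cSirt4-Tg-TAC 6 lay inside that range. Summed fibroblast markers were 15980 to 19790 in Con-Sham, 23130 to 32050 in cSirt4-Tg-Sham, 18950 to 51790 in Con-TAC, 22660 to 85530 in cSirt4-Tg-TAC and 29130 to 33540 in cSirt4-Tg-TAC-MQ. The sham ranges did not overlap. Of the 6 fibroblast markers, 1 (Lum) was higher in cSirt4-Tg-Sham than in Con-Sham. With TAC 2 rose in control hearts (Lum and Postn) and 4 in cSirt4-Tg hearts (Postn, Col1a1, Dcn and Tcf21). After TAC 1 (Col1a1) was higher in cSirt4-Tg hearts, and 3 fell there with MitoQ (Dcn, Tcf21 and Postn). Of all genes 2.65% and 7.91% rose with TAC, 3.19% were higher after TAC and 7.44% fell with MitoQ. Macrophages also make vimentin. Their 6 markers summed to 2855 to 3891 in Con-Sham and 4798 to 6797 in cSirt4-Tg-Sham, without overlap, and 3 of the 6 were higher (Csf1r, C1qa and Adgre1), where 0.786% of all genes were. After TAC the sums were 3476 to 4909 in control and 3495 to 9760 in cSirt4-Tg hearts, with 4 of the 6 higher, and 5326 to 5798 in cSirt4-Tg-TAC-MQ, with 1 of the 6 lower than in cSirt4-Tg-TAC. The part of fibroblasts and macrophages in the Vim differences was not tested.

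Nestin had the smallest rise of the 5 members that passed in cSirt4-Tg hearts. Nes had 1543 to 1966 in Con-Sham and 1480 to 2180 in Con-TAC (log2 -0.0044, SE 0.19, limma adjusted p = 0.993). In cSirt4-Tg hearts it rose from 1043 to 1806 after sham surgery to 1690 to 2437 after TAC, with 5 TAC hearts above all sham hearts (1.47-fold, log2 0.55, SE 0.19, adjusted p = 0.0383). That call for Nes was lost without any one of cSirt4-Tg-TAC 1, 4 and 5 or cSirt4-Tg-Sham 2, 5 and 6 (adjusted p up to 0.0997) and in edgeR (0.0547). The highest value of all, 3643, was in Con-TAC-MQ 3.

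Lamin A/C rose with TAC in cSirt4-Tg hearts and fell with MitoQ without overlap of the groups. Lmna had 2628 to 3604 in Con-Sham (median 2956), 3112 to 3777 in cSirt4-Tg-Sham (3296) and 3137 to 5033 in Con-TAC (3683). The control TAC difference did not pass (log2 0.36, SE 0.12, limma adjusted p = 0.0744). In cSirt4-Tg-TAC it had 3883 to 6354 (5302), wholly above cSirt4-Tg-Sham (1.57-fold, log2 0.65, SE 0.12, adjusted p = 0.00114) and, in 5 of 6 hearts, above all of Con-TAC (1.37-fold, log2 0.45, SE 0.12, adjusted p = 0.0297). In cSirt4-Tg-TAC-MQ the hearts lay close together at 3335 to 3781, wholly below cSirt4-Tg-TAC (1.46-fold lower, log2 -0.55, SE 0.12, adjusted p = 0.0028). Con-TAC-MQ had 3107 to 3526 in 5 hearts and 5959 in replicate 3. With scaling to equal totals of reads from nuclear genes, Lmna also passed in control TAC hearts (log2 0.46, adjusted p = 0.0392).

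Lamin B1, encoded on chromosome 18 (56840885 to 56886496), passed in none of the 7 comparisons. Lmnb1 had 64.9 to 159.2 in Con-Sham, 111.2 to 222.4 in cSirt4-Tg-Sham, 78.1 to 168.4 in Con-TAC, 141.1 to 262.3 in cSirt4-Tg-TAC and 127.9 to 174.4 in cSirt4-Tg-TAC-MQ. Its smallest adjusted p was that of cSirt4-Tg-TAC against Con-TAC (1.47-fold, log2 0.56, SE 0.26, limma adjusted p = 0.167). In Con-TAC-MQ 5 hearts had 96.6 to 176.2 and replicate 3 had 485.8, the highest of all 36. The same heart had 1773 normalized counts of Mki67, a protein of dividing cells, against 88.3 to 507.2 in the other 5, and its Vim (19090), Nes (3643) and Lmna (5959) were each the highest of their group. Mcm5, a replication helicase subunit, was the gene whose log2 values over the 36 hearts were most like those of Lmnb1 (r = 0.826).

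**Figure D4:**
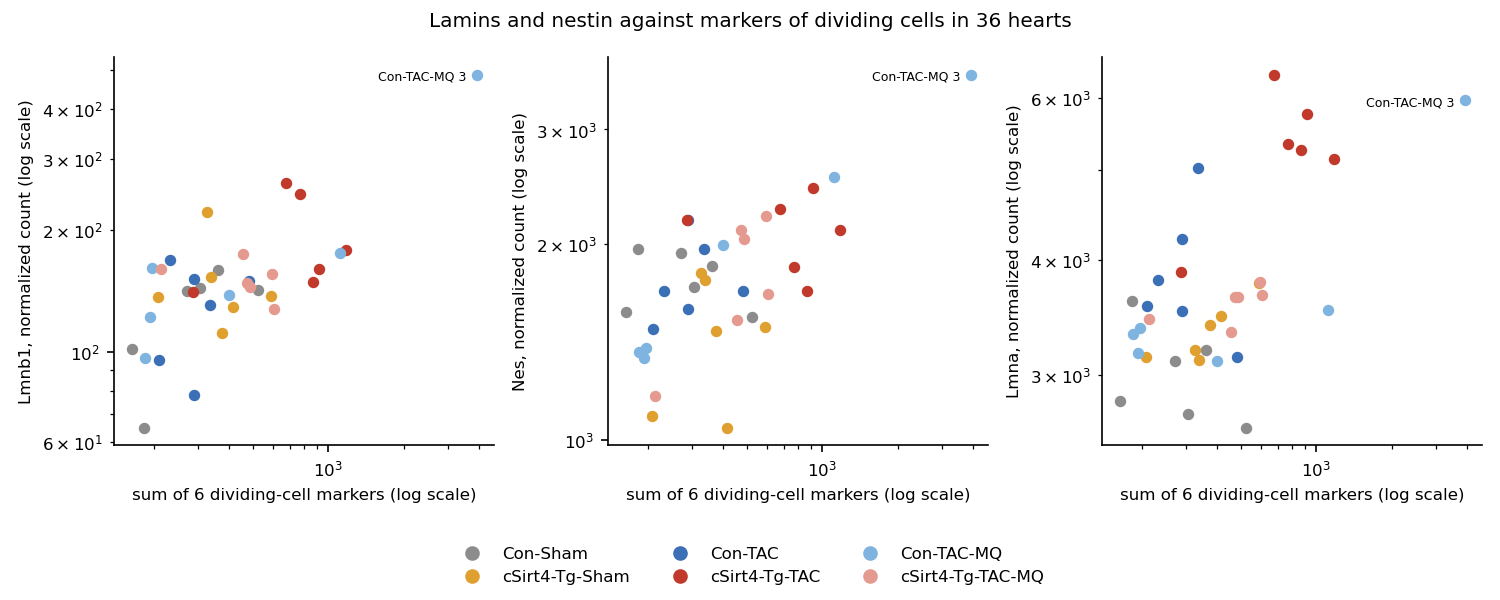
Lmnb1, Nes and Lmna in each of the 36 hearts against the summed normalized counts of 6 markers of dividing cells, on log axes; each point is a heart. Con-TAC-MQ 3, at a marker sum of 3924, has the highest Lmnb1 (485.8) and Nes (3643), whereas its Lmna (5959) is exceeded by cSirt4-Tg-TAC 4 (6354) at a sum of 675.5.

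Since Krt18 ranged so widely among TAC hearts, its log2 values in the 24 TAC hearts were set beside 12 other measures after each group's mean had been subtracted. The correlations are a description, and the points share each library's scaling and depth. Krt18 went with the 6 cardiomyocyte stress markers (Nppa, Nppb, Acta1, Myh7, Ankrd1 and Xirp2; Pearson's r = 0.906, Spearman's rho = 0.817) and against the 8 markers of mature cardiomyocytes (r = -0.86, rho = -0.758). Among the other members it followed Des (r = 0.843, rho = 0.737), Lmna (r = 0.791, rho = 0.724), Vim (r = 0.752, rho = 0.708) and Synm (r = 0.705, rho = 0.624). The correlation was smaller for Krt8 (r = 0.533, rho = 0.419), Lmnb1 (r = 0.49, rho = 0.458), Nes (r = 0.335, rho = 0.277) and the mesothelial and epicardial markers (r = 0.326, rho = 0.179). For the number of reads r was 0.0298 and rho 0.0383. The percentage of mitochondrial reads went against Krt18 (r = -0.626, rho = -0.481).

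The 2 hearts farthest from the median Krt18 were Con-TAC 6 and cSirt4-Tg-TAC 6. Without them r was 0.704 for the stress markers, -0.614 for the cardiomyocyte markers, 0.625 for Des, 0.73 for Lmna, 0.741 for Vim, 0.402 for Synm, 0.391 for Krt8, 0.715 for Lmnb1 and 0.649 for Nes, so the order of the members depended on these hearts. In Con-TAC 6 the cardiac myosin gene Myh6 had 325100 normalized counts, against 584300 to 980600 in the other Con-TAC hearts, and the sum of the stress markers was 808700. In cSirt4-Tg-TAC 6 Myh6 had 938800, against 279900 to 655700 in the rest of its group, and the sum of the stress markers was 105400, within the range of Con-Sham (80750 to 138400). Nppa, the atrial natriuretic peptide gene, was 3535 in that heart and 94190 to 245200 in the other 5. Within single groups of 6 hearts Krt18 followed the stress markers with r = 0.952 in Con-TAC, 0.988 in cSirt4-Tg-TAC, 0.674 in Con-TAC-MQ and 0.502 in cSirt4-Tg-TAC-MQ, where Krt18 itself ranged only 1.39-fold. For Vim r was 0.86, 0.897 and 0.825 in the first 3 and -0.602 in the last.

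**Figure D5:**
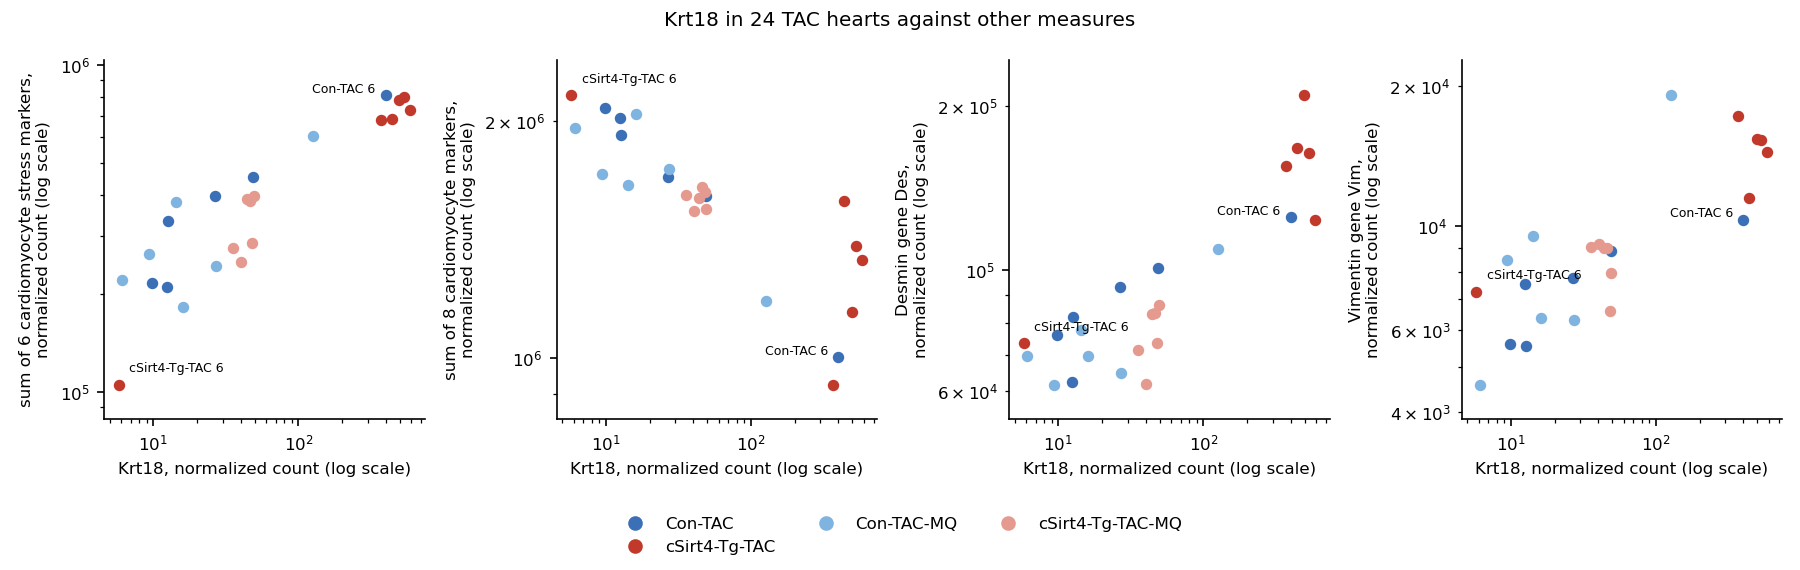
Krt18 in the 24 TAC hearts against the summed cardiomyocyte stress markers, the summed cardiomyocyte markers, Des and Vim, as normalized counts on log axes; each point is a heart. Con-TAC 6 lies with the 5 high cSirt4-Tg-TAC hearts, whose Krt18 is 370.1 to 586.9, and cSirt4-Tg-TAC 6 lies at 5.78.

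The genes most like each member over the 36 hearts, by Pearson's r of log2 values, were described without a test. Their likeness includes the differences between groups that all of them share. For Krt18 they were Fstl1 (r = 0.95), a secreted follistatin-like protein, the microfibril protein Mfap5 (0.947) and periostin, Postn (0.942), a matrix protein of activated fibroblasts. With group means subtracted in the 24 TAC hearts, the collagen gene Col8a1 (0.941) and Fstl1 (0.937) came first, and Adcy7 (0.932) and the growth factor gene Tgfb2 (0.931) were also among the 5 most alike. Postn itself ran from 635.7 to 39950 over the hearts. For Vim they were the annexins Anxa2 (0.952) and Anxa1 (0.95) and the collagen gene Col1a2 (0.944), and Anxa2 (0.943) was also most like Lmna. For Des they included Igfbp7 (0.946) and Efhd2 (0.935). For Synm the pericyte proteoglycan gene Cspg4 came first (0.852), and for Nes the cyclin gene Ccnd1 (0.779). For Krt8 no gene exceeded 0.778 (Necap2).

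Other genes of the filament system were read from lists. Of 17 further filament genes 10 passed the filter on low values. The keratin gene Krt80 rose with TAC in control hearts (187.4 ± 166.9 against 54.7 ± 9.14, SD, n = 6; log2 1.45, SE 0.38, limma adjusted p = 0.027) and in cSirt4-Tg hearts (log2 1.38, SE 0.38, adjusted p = 0.0144). Peripherin, Prph, the filament of peripheral neurons, had 6.92 ± 2.84 in cSirt4-Tg-Sham, 25.9 ± 4.83 in cSirt4-Tg-TAC and 8.67 ± 3.27 in cSirt4-Tg-TAC-MQ. Its sham and MitoQ means lay below the filter's minimum of 10. Prph may thus have been tested only because of its values in cSirt4-Tg-TAC, and its p-values are not given. Krt222 was lower in cSirt4-Tg-TAC than in Con-TAC (log2 -0.80, SE 0.25, adjusted p = 0.0446), 1 of the 10 where 3.29% of all genes were lower. The list's median was 0.25 with TAC in control hearts and 0.34 in cSirt4-Tg hearts, where those of all genes were 0.01 and -0.01.

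Among 12 linkers, which tie filaments to desmosomes and other structures, 1 fell with TAC in control hearts, where 2.65% of all genes were lower. In cSirt4-Tg hearts 3 fell with TAC, where 8.77% of all genes were lower. The medians of the list were -0.26 and -0.18, and those of all genes 0.01 and -0.01. Dsg2, the desmoglein of the intercalated disc, fell from 2913 ± 252.6 to 1470 ± 424.0 in cSirt4-Tg hearts (log2 -1.02, SE 0.17, limma adjusted p = 0.000569) and from 3246 ± 223.9 to 2148 ± 696.1 in control hearts (log2 -0.65, SE 0.17, adjusted p = 0.0286). With MitoQ it was 2899 ± 346.5 in cSirt4-Tg hearts (log2 1.01, SE 0.17, adjusted p = 0.000325), so Dsg2 ran opposite to Des there. Its partner desmocollin, Dsc2, fell with TAC (log2 -0.70, SE 0.16, adjusted p = 0.00427) and rose with MitoQ (log2 0.65, SE 0.16, adjusted p = 0.00555) in cSirt4-Tg hearts. Epiplakin, Eppk1, is a linker that binds keratins. It had 33.5 ± 11.2 in cSirt4-Tg-TAC, 8.60 ± 6.08 in cSirt4-Tg-Sham and 8.63 ± 15.9 in Con-TAC. The sham and Con-TAC means lay below the filter's minimum of 10. Eppk1 may thus have been tested only because of its values in cSirt4-Tg-TAC. It is left out of the counts of linkers that rose, and its p-values are not given. With MitoQ the large linkers Macf1 and Plec rose in control hearts (log2 0.54 and 0.49, limma adjusted p = 0.034 and 0.0347), where 1.92% of all genes were higher. In cSirt4-Tg hearts 3 of the 12 rose with MitoQ, where 9.89% of all genes were higher.

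Of 9 small heat shock proteins and co-chaperones that guard filaments, 3 rose with TAC in control hearts: Hspb7 (52280 ± 3735 to 78900 ± 6739, log2 0.59, SE 0.12, limma adjusted p = 0.00774), Hspb8 (log2 0.48, adjusted p = 0.0149) and Hspb6 (log2 0.84, adjusted p = 0.0161). In that comparison 2.65% of all genes were higher, and the median of the list was 0.48 against 0.01 for all genes. In cSirt4-Tg hearts 1 of the 9 rose with TAC, where 7.91% of all genes were higher: Dnajb6, a co-chaperone of desmin (log2 0.30, SE 0.09, limma adjusted p = 0.0209). With MitoQ 2 of the 9 fell there, Hspb2 (log2 -0.43, SE 0.12, adjusted p = 0.0111) and Dnajb6 (log2 -0.25, adjusted p = 0.048). In that comparison 7.44% of all genes were lower. Of 16 genes of the nuclear envelope and its bridge to the cytoskeleton, 1 (Nup210) fell with TAC in control hearts, where 2.65% of all genes were lower. In cSirt4-Tg hearts 1 rose with TAC (Tmem43) and 2 fell (Lemd3 and Ankle2), where 7.91% of all genes were higher and 8.77% lower. The list's medians with TAC were -0.18 and -0.15, and those of all genes 0.01 and -0.01. With MitoQ 5 of the 16 rose in control TAC hearts (Lemd3, Syne2, Tmpo, Nup210 and Syne3). In cSirt4-Tg TAC hearts 6 rose with MitoQ (Syne2, Lemd3, Nup210, Syne3, Syne1 and Ankle2) and Banf1 fell, while Lmna fell. Of all genes 1.92% were higher with MitoQ in control hearts, and 9.89% were higher and 7.44% lower in cSirt4-Tg hearts, and the medians of the list were 0.14 and 0.17 against 0.01 and 0.00. With scaling to equal totals of nuclear-gene reads, 84.5% and 85.2% of all calls in these comparisons were higher, instead of 59.5% and 57.1%. Syne2, which encodes a nesprin, went from 1109 ± 238.6 to 1614 ± 153.5 (log2 0.56, SE 0.15, limma adjusted p = 0.0107). Of the 5 genes that process prelamin A, 0 passed in any comparison, and their medians lay between -0.07 and 0.09.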

How the data were processed

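RNA was measured by sequencing in 36 whole hearts. Per the labels, RNA came from a fibrous tissue kit and libraries from a directional kit. Trim Galore and STAR were used, with the build mm39, per the submitters' processing notes; the sources used here give no versions, no read counter or strand setting and no name for the normalization. The authors deposited a normalized read count (unit: signal) for each gene in each library. All values (100%, within 0.01 read) were whole multiples of 1 step per library, so reads were recovered and used for totals and for count-based tests.

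Groups came from the labels. Genes with at least 10 in at least 6 libraries (16275 of 25626) entered limma 3.58.1 (R 4.3.3) on the log2(value + 1) scale: 1 mean per group, all 36 libraries, 30 residual degrees of freedom, trend and robust moderation, two-sided, Benjamini-Hochberg over all tested genes, threshold 0.05. No block was used: libraries with the same replicate number did not deviate together (r from -0.483 to 0.311, 90 pairs). Correlations are descriptive. The fit was tested on simulated data. Members, gene lists and the rule for naming genes (all members, list genes that passed, and the 3 or 5 genes most like a member) were chosen with earlier results of these data known. Some of the genes most like a member are not reported here. Alternatives were a pseudocount of 10, no filter, TMM factors, equal totals of nuclear-gene reads, the replicate number as a block, the name number class, only libraries named 7 to 14, only the libraries compared, edgeR 4.0.16, DESeq2 1.42.0 and each library left out; leaving out 5 libraries together was added after seeing the data. Promoter sequences are RefSeq's for GRCm38.p6, matched by symbol, and no coordinate was converted. Levels were not compared between genes, because lengths were not used.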

Additional observations from a re-analysis of the deposited data

Results flagged for a closer look

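In 5 of 44 sets of 6 hearts (8 genes in 6 groups on the log2 scale, without Krt18 in the 4 TAC groups, on whose spread it was chosen) the highest or lowest heart stood further from its nearest neighbour, relative to the range of the group, than Dixon's critical value. Chance flags about 1 in 20 such sets. Krt8 stood high in cSirt4-Tg-Sham 2 (ratio 0.698, 68.0 normalized counts against 3.67 to 9.51 in the other 5) and in Con-TAC 6 (ratio 0.729, 64.8 against 1.92 to 5.81). Both hearts also had Epcam, Cdh1 and Krt7 well above the rest of their groups. Synm stood high in Con-Sham 1 (ratio 0.87, 664.7 against 463.2 to 485.5), a group whose other 5 hearts lay very close together. In Con-TAC-MQ 3 Lmna (ratio 0.806, 5959 against 3107 to 3526) and Lmnb1 (ratio 0.629, 485.8 against 96.6 to 176.2) both stood high, and this heart had the highest sum of dividing-cell markers.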

How the results depend on the processing

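Counts are of the 7 members other than Krt18. Calls over all genes also moved between fits, so a changed count is not shown to be particular to the members. With equal totals of nuclear-gene reads, for example, 1113 genes passed for Con-TAC against Con-Sham instead of 863. With a replicate block the count of members was 0 for Con-TAC against Con-Sham instead of 1, and no other count of members left 1.5 times its main value under the block; replicate numbers did not pair the hearts. The same count was 0 with no filter, with the name number class and in libraries named 7 to 14, and 2 with equal totals of nuclear-gene reads, with only the libraries compared, and 3 without the 5 libraries that stood apart. For cSirt4-Tg-Sham against Con-Sham it was 1 in libraries named 7 to 14, 2 with only the libraries compared and 1 without those 5. For cSirt4-Tg-TAC against Con-TAC it was 0 with only the libraries compared. For MitoQ in control TAC hearts it was 1 without the 5, and in cSirt4-Tg TAC hearts it was 2 with no filter and 2 with equal totals of nuclear-gene reads. Each interaction had 3 without the 5. For most of these fits the shares of all genes are not given here, so none of these counts is read as a result about the members. With 1 library left out the counts of members ran from 0 to 2 for Con-TAC against Con-Sham, from 4 to 5 for TAC in cSirt4-Tg hearts, from 0 to 5 for cSirt4-Tg-TAC against Con-TAC, from 0 to 1 for MitoQ in control and from 2 to 5 in cSirt4-Tg hearts, and were 0 in every such fit of the other comparisons. The cause of these changes was not tested. Within cSirt4-Tg-TAC-MQ alone, the correlation of Krt18 with Krt8 (-0.383), Vim (-0.602), Lmna (-0.551) the percentage of mitochondrial reads (0.441), Nes (-0.714) and the mesothelial and epicardial markers (-0.676) had the opposite sign to that over all TAC hearts. That scaling moved the median log2 difference of all genes from 0.01 to 0.11 for Con-TAC against Con-Sham, and put 83.6% of all calls higher instead of 49.9% there, 84.5% instead of 59.5% for MitoQ in control hearts and 85.2% instead of 57.1% for MitoQ in cSirt4-Tg hearts. Krt8, with at most 82 reads, is limited by depth.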

Other observations

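Across the 36 hearts the log2 values of the members varied together to different degrees, which is given as a description. These points share the differences between groups and each library's scaling. With group means subtracted, the pair with the highest Pearson's r was Krt18 and Des (0.821), followed by Vim and Lmna (0.809) and Des and Lmna (0.777). Krt18 varied less with its filament partner Krt8 (r = 0.42) than with Vim (0.728) or Lmna (0.756). Krt8 itself had its highest r with Lmna (0.635). Synemin and desmin, which co-assemble, had r = 0.53. The A-type and B-type lamins Lmna and Lmnb1 had r = 0.45, and Lmnb1 was nearer to Vim (0.564) and Nes (0.514). These differences between correlations were not tested.

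In MitoQ-treated control hearts replicate 3 and replicate 4 had the highest Mki67 (1773 and 507.2) and the highest Nes (3643 and 2533), Vim (19090 and 9514), Lmna (5959 and 3526) and Lmnb1 (485.8 and 176.2) of that group. Des was also highest in these 2 hearts (109200 and 77750). Krt18 was 126.9 in replicate 3 and 14.3 in replicate 4, below the 27.1 of replicate 6.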
